A study of Mus musculus with 16 samples.

Results

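The genes described here serve protein folding and the stress response of the endoplasmic reticulum (ER). They were chosen by symbol as a named set of 36 genes, and all 36 were found among the 21220 genes of the authors' normalized table. By role they comprise 12 ER chaperones and co-chaperones, 7 disulphide and prolyl isomerases or their oxidase, 7 genes of ER-associated degradation (ERAD), 6 stress sensors and transcription factors, and 4 targets of the transcription factors ATF4 and CHOP.

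Secreted and membrane proteins enter the ER unfolded, where chaperones hold them, isomerases shape their disulphide and proline bonds, and ERAD removes those that fail. When unfolded proteins accumulate, the membrane sensors IRE1, PERK and ATF6 start the unfolded protein response. IRE1 splices the mRNA of XBP1, PERK slows translation and raises ATF4, and ATF6 is cut to release a transcription factor. XBP1 and ATF6 act on chaperone and ERAD genes. ATF4 acts on genes of amino acid supply and, together with CHOP, on genes of recovery and cell death, and it also responds to stresses that do not start in the ER.

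RNA came from cultured organs of Corti, the part of the cochlea that holds its sensory hair cells. They were dissected from C57BL/6 mice at postnatal day 0 and kept in culture for 3.5 days. The 4 groups, each of 4 libraries, were Rest(+/deltaExon4) heterozygous cultures with FK228, heterozygous cultures in solvent, wild-type cultures with FK228 and wild-type cultures in solvent. FK228 (romidepsin), which inhibits histone deacetylases of class I, was given at 2 nM on days 1 to 1.5 and 3 to 3.5 of culture, and the solvent groups received 0.1% DMSO at the same times. The labels do not state whether the FK228 medium held DMSO as well. A library held RNA pooled over 6 to 8 cultures, and whether pools were drawn from different litters is not given in the labels. The p-values therefore measure the spread among pools, which may in part be technical. REST is a repressor of neuronal genes, and the heterozygous mice lack exon 4 on 1 of their Rest alleles in every cell, as far as the labels say.

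Gene counts ranged from 12361027 to 23611571 per library, lowest in the heterozygous FK228 group. They were 12361027 to 14153838 in heterozygous FK228 and 14627922 to 15674930 in heterozygous solvent libraries. Wild-type libraries had 16224586 to 17656274 with FK228 and 17462876 to 23611571 in solvent, so every heterozygous library held fewer counts than every wild-type library. Rest itself was at 75.8 to 87.3 CPM (counts scaled to library size) in heterozygous FK228 libraries, 78.1 to 94.8 CPM in heterozygous solvent, 69.9 to 79.9 CPM in wild-type FK228 and 75.2 to 86.4 CPM in wild-type solvent libraries. Its log2 difference between genotypes was 0.13 ± 0.078 (adjusted p = 0.525) with FK228 and 0.12 ± 0.077 (adjusted p = 0.654) in solvent, and a count over the whole gene does not test for 1 missing exon. All 16 hair cell markers and all 17 supporting cell markers of the lists used here were detected in every group. ERCC spike-in RNA took 0.312% to 0.393% of counts in heterozygous FK228 libraries and 0.156% to 0.237% in the other 3 groups. With spike-in scaling the FK228 comparison had an all-gene median log2 fold change of -0.72 in heterozygous and -0.16 in wild-type cultures, and the genotype comparison one of -0.74 with FK228 and -0.18 in solvent. Whether spike-in RNA was added per amount of RNA or per culture is not given in the sources used here, so what these shifts measure is not known. All changes below are relative to the other transcripts of the same libraries, and in bulk RNA fewer cells of a type and less RNA per cell cannot be told apart.

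The promoters of these genes carry known elements of the stress response. Windows of 300 bases, 250 before and 50 after an annotated start (RefSeq, GRCm38.p6), were found for 32 of the 36 genes, as 36 windows, and were not used for Hyou1, Manf, Derl1 and Atf6. The ER stress element ERSE, which is CCAAT and CCACG with 9 bases of any kind between them, on either strand, which binds NF-Y beside ATF6 or XBP1, lay in the windows of 9 genes and in 0.119% of all 32851 windows. The 29-base stretches are shown because they mark which of the 36 genes hold the element, with the fixed letters in capitals and Hsp90b1 holding it at 2 places:
Hspa5: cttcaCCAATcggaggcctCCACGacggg
Hsp90b1: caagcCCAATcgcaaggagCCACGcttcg
Hsp90b1: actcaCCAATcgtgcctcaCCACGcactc
Calr: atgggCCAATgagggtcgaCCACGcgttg
Canx: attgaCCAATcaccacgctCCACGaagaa
Dnajc3: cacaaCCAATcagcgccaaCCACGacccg
Creld2: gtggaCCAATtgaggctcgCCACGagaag
Pdia6: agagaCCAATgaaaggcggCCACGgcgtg
Syvn1: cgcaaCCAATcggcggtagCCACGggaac
Derl3: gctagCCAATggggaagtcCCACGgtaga

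The shorter ERSE-II, which is ATTGG and CCACG with 1 base between them, lay in the windows of 2 genes and in 0.0365% of all windows:
Dnajb11: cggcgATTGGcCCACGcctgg
Herpud1: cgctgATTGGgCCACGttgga

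The CARE element TGATGNAA, at which ATF4 binds with C/EBP partners, lay in the windows of 4 genes and in 3.97% of all windows. These are shown because all 4 genes are followed through the FK228 comparisons, again with the fixed letters in capitals:
Herpud1: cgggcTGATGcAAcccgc
Trib3: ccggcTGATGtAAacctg
Chac1: aggagTGATGcAAcggca
Asns: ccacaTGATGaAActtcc

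The XBP1 element UPRE, TGACGTGG, was in none of the 36 windows and in 0.676% of all windows. No match of one element overlapped a match of another. Herpud1 was the gene with 2 kinds of element, and the 250 bases upstream of its start are printed with those of Hspa5, a gene with ERSE whose values are followed below. In Hspa5 (chr2:34771840-34772089, plus strand) the capitals mark ERSE at positions -65 to -47, counted back from -1 at the base before the start. In Herpud1 (chr8:94386179-94386428, plus strand) they mark CARE on the other strand at -112 to -105 and ERSE-II at -52 to -42:
Hspa5: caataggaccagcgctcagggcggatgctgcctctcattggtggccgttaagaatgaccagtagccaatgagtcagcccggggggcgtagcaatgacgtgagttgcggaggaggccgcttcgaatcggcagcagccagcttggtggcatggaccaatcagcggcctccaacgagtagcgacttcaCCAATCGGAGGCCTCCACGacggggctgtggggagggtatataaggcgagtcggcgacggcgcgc
Herpud1: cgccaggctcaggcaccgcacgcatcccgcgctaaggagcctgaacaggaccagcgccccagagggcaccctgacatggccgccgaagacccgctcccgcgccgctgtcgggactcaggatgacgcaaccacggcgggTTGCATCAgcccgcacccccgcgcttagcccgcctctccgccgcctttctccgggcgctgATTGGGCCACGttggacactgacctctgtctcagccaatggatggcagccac
A match of letters is a description and shows no binding in these cultures.

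Levels of the 36 genes differed widely when set per kb of exon. Serpinh1, the collagen chaperone HSP47, was the most abundant at 1274 CPM per kb over all 16 libraries, and its lowest library, at 818, lay above the highest library of the next gene, P4hb, at 624. P4hb and Pdia3, disulphide isomerases, followed at 532 and 522 CPM per kb with overlapping libraries. Pdia4, Hspa5, Hsp90b1, Canx and Pdia6 lay between 390.1 and 333 CPM per kb, also with overlapping libraries. The lowest were 2 sensor genes, Ern1 (IRE1) at 1.11 and Eif2ak3 (PERK) at 1.05 CPM per kb. Together the 36 genes took 1.36% to 1.54% of gene counts in heterozygous FK228 libraries, 1.50% to 1.63% in heterozygous solvent, 1.43% to 1.54% in wild-type FK228 and 1.47% to 1.59% in wild-type solvent libraries. The coefficient of variation over the 4 libraries of a group ran from 1.28% (Ppp1r15a, heterozygous with FK228) to 43.1% (Edem1, heterozygous with FK228). Taken as each gene's median over the 4 groups, it had a median of 8.75% over the 36 genes.

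**Figure D1:**
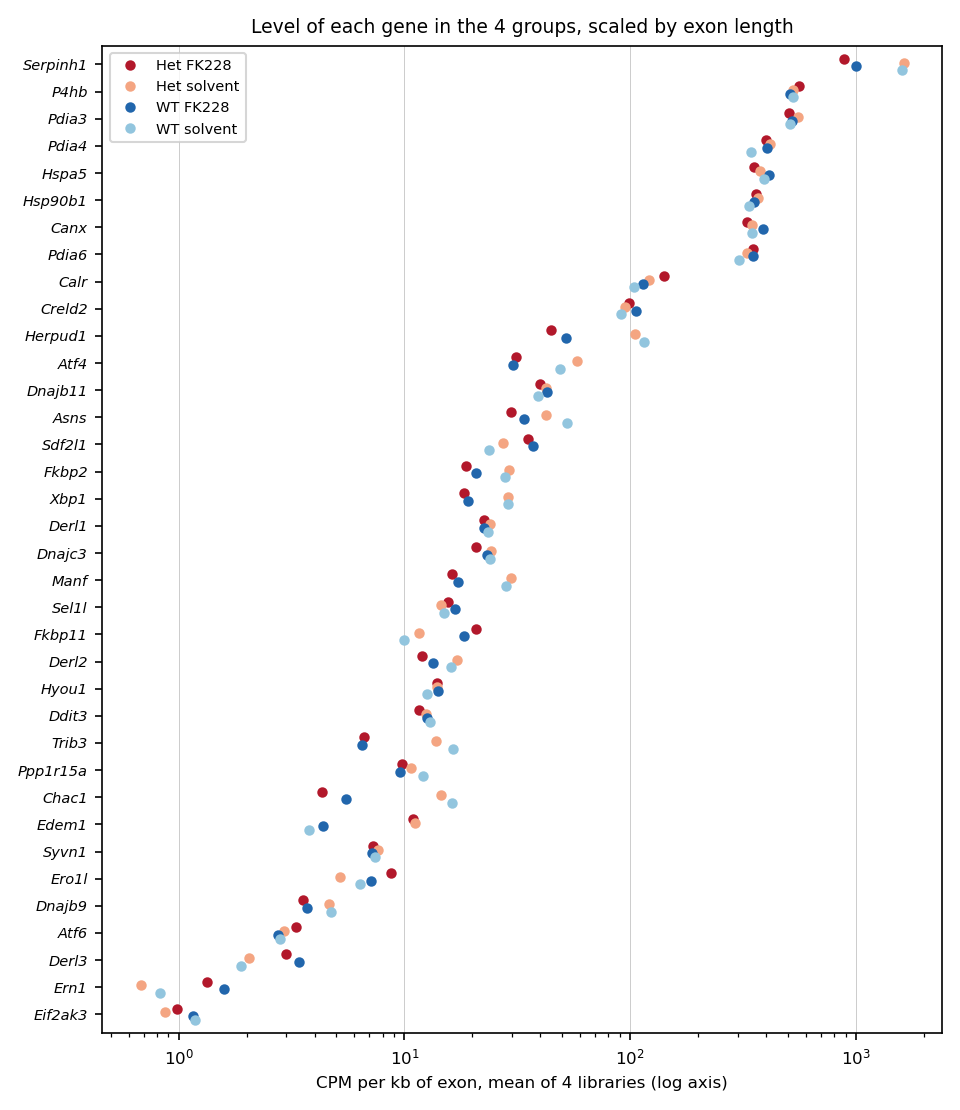
Level of each of the 36 genes in CPM per kb of exon on a log axis, as the mean of 4 libraries in each group, with genes ordered by their level over all 16 libraries. Serpinh1 leads at 1274 CPM per kb over all libraries, Ern1 and Eif2ak3 are lowest, and for most of the 10 genes at the top the 4 groups lie close together.

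The question of the first comparisons was what FK228 did to these transcripts in each genotype. Atf4, Chac1, Trib3, Asns, Herpud1, Derl2, Serpinh1, Manf, Fkbp2 and Xbp1 fell in both genotypes, and Fkbp11 and Ern1 rose in both. Of the 10 genes with the highest level per kb, 1 rose (Calr) and 1 fell (Serpinh1) in heterozygous cultures, and 0 rose and 1 fell (Serpinh1) in wild type, where DESeq2 also called Canx, Pdia4 and Pdia6 higher. Of the 36 genes 5 rose and 11 fell in heterozygous cultures, and 4 rose and 12 fell in wild type (edgeR's quasi-likelihood test, Benjamini-Hochberg adjusted p under 0.05). Over all 17125 genes tested, 23.8% were called higher and 24.7% lower in heterozygous cultures (48.4% in either direction), and 23.7% higher and 25.3% lower in wild type (49.0% in either direction). The share of the 36 genes called was thus near that of all genes, and the counts say nothing particular of the set. The same 11 genes fell in both genotypes, 3 rose in both, 18 passed in neither, and 0 were called in opposite directions. In heterozygous cultures 3 genes had all FK228 libraries above and 10 had them below all solvent libraries, beside 21.1% and 21.5% of all genes, and in wild type 6 were above and 11 below, beside 21.9% and 22.8%.

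These counts changed with the fit. In wild type the 4 rises were 8 with DESeq2, 7 with RLE factors or a stricter filter, 8 with only the groups compared, and 7 without heterozygous solvent replicate 4, wild-type FK228 replicate 2 or wild-type solvent replicate 1. In heterozygous cultures the 5 rises were 3 without FK228 replicate 2 or 3 or solvent replicate 1 or 5. They were 7 without solvent replicate 4 and 6 without FK228 replicate 5. The spike-in fit gave 0 rises and 30 falls there, beside 807 of all 17125 genes called higher and 10717 lower. With spike-in scaling higher genes made up 7.003% of all calls in heterozygous cultures and 30.8% in wild type, where TMM factors gave 49.03% and 48.4%. The falls ranged from 10 to 12 in heterozygous and 11 to 12 in wild-type cultures over the fits that left out 1 library.

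**Figure D2:**
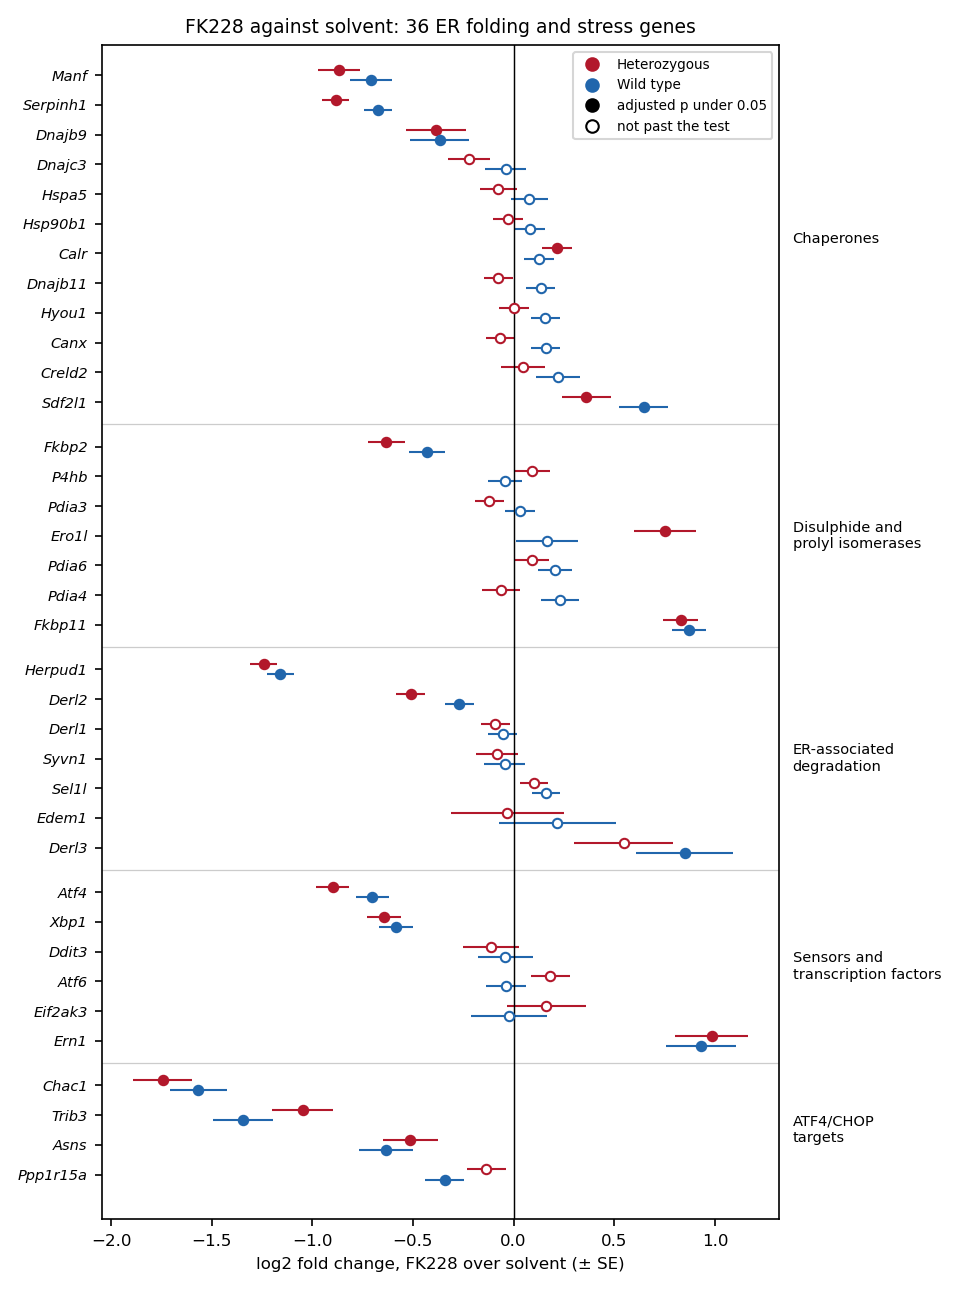
Log2 fold change of FK228 over solvent (± SE, x axis) for the 36 genes, grouped by role, in heterozygous (red) and wild-type (blue) cultures, filled where the adjusted p was under 0.05. Chac1, Trib3, Herpud1, Atf4, Serpinh1 and Manf lie left of 0 and Fkbp11 and Ern1 right of 0 in both genotypes, while with spike-in scaling Calr and Sdf2l1 in heterozygous cultures lie at -0.49 and -0.34.

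Among the chaperones, 2 rose and 3 fell of 12 in heterozygous cultures, and 1 rose and 3 fell in wild type. Beside this stand 23.8% of all genes called higher and 24.7% lower in heterozygous cultures, and 23.7% and 25.3% in wild type. The counts of the other roles below stand beside the same shares. Their median log2 fold change was -0.071 in heterozygous and 0.10 in wild-type cultures, against 0.00082 and -0.0058 over all genes. Serpinh1, which holds procollagen in the ER, had 2019, 2352, 2248 and 1999 CPM in heterozygous FK228 libraries, against 3920.3, 4205, 3787 and 3999 CPM in heterozygous solvent libraries. Serpinh1 in wild type was at 2385, 2591, 2478 and 2291 CPM with FK228 and 4155, 3638, 3913 and 3833 CPM in solvent. Every FK228 library lay below every solvent library of its genotype, and the log2 fold change was -0.88 ± 0.068 (adjusted p = 1.03e-08) in heterozygous and -0.67 ± 0.068 (adjusted p = 2.77e-07) in wild-type cultures. Per kb this was 882 ± 71.2 CPM in heterozygous FK228 and 1628 ± 71.6 CPM in heterozygous solvent libraries (SD, n = 4 each). Manf, a secreted and ER-resident factor that is induced by ER stress, had 57.7, 62.2, 59.3 and 50.4 CPM in heterozygous FK228 libraries, against 97.4, 114, 107 and 101 CPM in heterozygous solvent libraries. Manf in wild type was at 70.4, 58.9, 56.9 and 57.5 CPM with FK228 and 94.3, 108, 115 and 81.1 CPM in solvent. Again the FK228 libraries were all lower, with log2 fold changes of -0.87 ± 0.10 (adjusted p = 2.17e-06) in heterozygous and -0.71 ± 0.10 (adjusted p = 1.98e-05) in wild-type cultures. For Manf the sum of its strand-specific counts exceeded the unstranded count by 19.7%, and its exons overlap another gene on the opposite strand, where reads were left out.

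Hspa5, which encodes BiP, the master chaperone that binds and silences the 3 sensors, did not pass the test in either genotype. Hspa5 had 1669, 1527, 1478 and 1326 CPM in heterozygous FK228 libraries, against 1425, 1668, 1685 and 1548 CPM in heterozygous solvent libraries. Hspa5 in wild type was at 1786, 1623, 1924 and 1619 CPM with FK228 and 1723, 1619, 1853 and 1395 CPM in solvent. The groups overlapped, and the log2 fold change was -0.076 ± 0.091 (adjusted p = 0.516) in heterozygous and 0.077 ± 0.091 (adjusted p = 0.507) in wild-type cultures. Hsp90b1, the ER paralog of HSP90, had 1405, 1552, 1516 and 1336 CPM in heterozygous FK228 libraries, against 1429.8, 1509, 1603 and 1387 CPM in heterozygous solvent libraries. Hsp90b1 in wild type was at 1478, 1299.7, 1412 and 1518 CPM with FK228 and 1484, 1377, 1300.3 and 1229 CPM in solvent. These libraries overlapped too, at -0.029 ± 0.075 (adjusted p = 0.77) in heterozygous and 0.083 ± 0.075 (adjusted p = 0.376) in wild-type cultures. For Hsp90b1 the strand-specific sum exceeded the unstranded count by 23.2%, again where exons overlap a gene on the opposite strand.

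Canx and Calr are the lectin chaperones that retain glycoproteins until they fold, Canx in the membrane and Calr in the lumen. Canx had 1501, 1604, 1442 and 1640.2 CPM in heterozygous FK228 libraries, against 1522, 1536, 1718 and 1703 CPM in heterozygous solvent libraries. Canx in wild type was at 1742, 1851, 1691 and 2007 CPM with FK228 and 1509, 1708, 1707 and 1604 CPM in solvent. The groups overlapped and neither genotype passed, at -0.066 ± 0.071 (adjusted p = 0.466) in heterozygous and 0.16 ± 0.071 (adjusted p = 0.0718) in wild-type cultures. Calr had 414, 418, 427 and 360.2 CPM in heterozygous FK228 libraries, against 325, 354, 379 and 337 CPM in heterozygous solvent libraries. Calr in wild type was at 349.9, 307, 325 and 325 CPM with FK228 and 318, 318, 295 and 269 CPM in solvent. Calr passed in heterozygous cultures alone, at 0.21 ± 0.074 (adjusted p = 0.0234) in heterozygous and 0.12 ± 0.074 (adjusted p = 0.178) in wild-type cultures, with overlapping groups and with -0.49 under spike-in scaling. That call was lost in 6 of 25 other fits, with an adjusted p of up to 0.0745, among them those without heterozygous FK228 replicate 2, 3 or 4 or heterozygous solvent replicate 1 or 5.

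Of the other chaperones, Sdf2l1, a partner of BiP's co-chaperones, had 0.36 ± 0.12 (adjusted p = 0.0211) in heterozygous and 0.65 ± 0.12 (adjusted p = 0.000259) in wild-type cultures, with -0.34 in heterozygous cultures under spike-in scaling. Its heterozygous call was lost in 6 of 25 other fits, among them those without heterozygous FK228 replicate 2 or 3 or heterozygous solvent replicate 1, 2 or 5 (adjusted p up to 0.0627). Dnajb9, a J-domain protein that brings BiP to IRE1, had -0.39 ± 0.15 (adjusted p = 0.0386) in heterozygous and -0.37 ± 0.15 (adjusted p = 0.0432) in wild-type cultures. Dnajb9 lost its call in 8 of 25 other fits in heterozygous and 12 of 25 in wild-type cultures (adjusted p up to 0.115 and 0.152). For the heterozygous call those fits included the ones without heterozygous FK228 replicate 3, 4 or 5 or solvent replicate 4 or 5. For the wild-type call they included those without heterozygous FK228 replicate 3 or 5, wild-type FK228 replicate 1 or 7 or wild-type solvent replicate 1 or 4. With all 16 libraries kept, the fit without a filter also lost the Dnajb9 call in both genotypes. Dnajb11, Dnajc3, Hyou1 and Creld2 passed in neither genotype, with log2 fold changes from -0.22 (Dnajc3) to 0.046 (Creld2) in heterozygous and from -0.04 (Dnajc3) to 0.22 (Creld2) in wild-type cultures.

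Among the isomerases and their oxidase, 2 rose and 1 fell of 7 in heterozygous cultures, and 1 rose and 1 fell in wild type. Fkbp11, a membrane-anchored prolyl isomerase of secretory cells, had 51.4, 59.01, 56.2 and 57.05 CPM in heterozygous FK228 libraries, against 29.3, 33.7, 31.2 and 31.7 CPM in heterozygous solvent libraries. Fkbp11 in wild type was at 52.96, 46.5, 45.95 and 52.4 CPM with FK228 and 30.6, 26.4, 24.6 and 26.4 CPM in solvent. All FK228 libraries lay above all solvent libraries of their genotype, at 0.83 ± 0.085 (adjusted p = 3.17e-07) in heterozygous and 0.87 ± 0.085 (adjusted p = 1.76e-07) in wild-type cultures. Fkbp2, a small prolyl isomerase of the ER lumen, had 28.96, 32.9, 27.5 and 33.99 CPM in heterozygous FK228 libraries, against 47.4, 49.2, 52.1 and 42.8 CPM in heterozygous solvent libraries. Fkbp2 in wild type was at 33.04, 34.9, 35.6 and 32.6 CPM with FK228 and 50.8, 47.2, 44.9 and 40.6 CPM in solvent. It went the other way without overlap, at -0.63 ± 0.092 (adjusted p = 1.68e-05) in heterozygous and -0.43 ± 0.09 (adjusted p = 0.000684) in wild-type cultures. Ero1l, the oxidase that recharges the disulphide isomerases, rose in heterozygous cultures at 0.75 ± 0.16 (adjusted p = 0.0006), while wild type was at 0.17 ± 0.15 (adjusted p = 0.389).

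The 4 protein disulphide isomerases, which form and reshuffle disulphide bonds, did not pass the test. P4hb, which is also the beta subunit of collagen prolyl hydroxylase, had 1784, 1563, 1528 and 1546 CPM in heterozygous FK228 libraries, against 1285, 1559, 1571 and 1611 CPM in heterozygous solvent libraries. P4hb in wild type was at 1540.3, 1396, 1591 and 1334 CPM with FK228 and 1654, 1408, 1606 and 1369 CPM in solvent. Groups overlapped, at 0.092 ± 0.087 (adjusted p = 0.405) in heterozygous and -0.043 ± 0.087 (adjusted p = 0.71) in wild-type cultures. Pdia3, the partner of Calr and Canx, had 1573, 1673, 1627 and 1492 CPM in heterozygous FK228 libraries, against 1613, 1755, 1896 and 1653 CPM in heterozygous solvent libraries. Pdia3 in wild type was at 1780.1, 1552, 1619 and 1598 CPM with FK228 and 1787, 1621, 1535 and 1461 CPM in solvent. Groups overlapped here too, at -0.12 ± 0.073 (adjusted p = 0.187) in heterozygous and 0.032 ± 0.073 (adjusted p = 0.742) in wild-type cultures. Pdia4 had 895, 1038, 1039 and 854 CPM in heterozygous FK228 libraries, against 900.1, 949, 1164 and 978 CPM in heterozygous solvent libraries. Pdia4 in wild type was at 988, 904, 907 and 1064 CPM with FK228 and 956, 789.7, 782 and 767 CPM in solvent. It lay at -0.061 ± 0.095 (adjusted p = 0.622) in heterozygous and 0.23 ± 0.095 (adjusted p = 0.0536) in wild-type cultures, and 11 of the 25 other fits without spike-in scaling called it higher in wild type, DESeq2 and limma voom among them. Pdia6 had 1313, 1360.4, 1342 and 1230.2 CPM in heterozygous FK228 libraries, against 1162, 1133, 1406 and 1218 CPM in heterozygous solvent libraries. Pdia6 in wild type was at 1431, 1209.9, 1242 and 1362 CPM with FK228 and 1322, 1123, 1056 and 1052 CPM in solvent. Pdia6 lay at 0.093 ± 0.085 (adjusted p = 0.385) in heterozygous and 0.20 ± 0.085 (adjusted p = 0.054) in wild-type cultures, with 10 of the 25 other fits calling it higher in wild type, again with DESeq2 and limma voom among them.

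In ERAD, 0 genes rose and 2 fell of 7 in heterozygous cultures, and 1 rose and 2 fell in wild type. Herpud1, a membrane protein that assembles the degradation complex and is itself an early gene of the stress response, showed the largest fall in this group. Herpud1 had 95.3, 108, 100.2 and 111 CPM in heterozygous FK228 libraries, against 241, 262, 242 and 236 CPM in heterozygous solvent libraries. Herpud1 in wild type was at 111, 129, 123 and 119.8 CPM with FK228 and 270.2, 263, 265 and 280.4 CPM in solvent. All FK228 libraries lay well below all solvent libraries of their genotype, and the log2 fold change was -1.24 ± 0.067 (adjusted p = 2.27e-10) in heterozygous and -1.16 ± 0.067 (adjusted p = 5.52e-10) in wild-type cultures. Derl2, a channel component that moves proteins out of the ER, had 88.2, 95.7, 97.9 and 105 CPM in heterozygous FK228 libraries, against 149.8, 139, 137 and 125 CPM in heterozygous solvent libraries. Derl2 in wild type was at 103, 109.8, 107 and 109.7 CPM with FK228 and 121, 139, 128 and 130.0 CPM in solvent. It fell in both genotypes without overlap, at -0.51 ± 0.071 (adjusted p = 1.13e-05) in heterozygous and -0.27 ± 0.071 (adjusted p = 0.00406) in wild-type cultures.

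Derl1 and Sel1l, a second derlin and the adaptor of the ubiquitin ligase HRD1, did not pass. Derl1 had 74.1, 78.9, 74.6 and 73.1 CPM in heterozygous FK228 libraries, against 75.4, 77.5, 85.3 and 81.97 CPM in heterozygous solvent libraries. Derl1 in wild type was at 75.7, 80.1, 72.9 and 71.5 CPM with FK228 and 86.01, 75.5, 79.98 and 70.1 CPM in solvent. The groups overlapped, at -0.09 ± 0.072 (adjusted p = 0.319) in heterozygous and -0.054 ± 0.072 (adjusted p = 0.562) in wild-type cultures. Sel1l had 134, 143, 132 and 122 CPM in heterozygous FK228 libraries, against 111, 119, 137 and 128 CPM in heterozygous solvent libraries. Sel1l in wild type was at 139, 147, 142 and 143 CPM with FK228 and 123, 130.1, 129 and 128 CPM in solvent. Its wild-type groups did not overlap, and it lay at 0.10 ± 0.07 (adjusted p = 0.241) in heterozygous and 0.16 ± 0.07 (adjusted p = 0.0634) in wild-type cultures, with 6 of the 25 other fits calling it higher in wild type, DESeq2 among them. Derl3, the third derlin, rose in wild type at 0.85 ± 0.24 (adjusted p = 0.00703) and was at 0.55 ± 0.25 (adjusted p = 0.0753) in heterozygous cultures. Syvn1, which encodes HRD1 itself, was at -0.082 ± 0.10 in heterozygous and -0.045 ± 0.10 in wild-type cultures, and Edem1 at -0.032 ± 0.28 and 0.22 ± 0.29, and neither passed. The overlap measure was 7.55% for Syvn1.

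**Figure D3:**
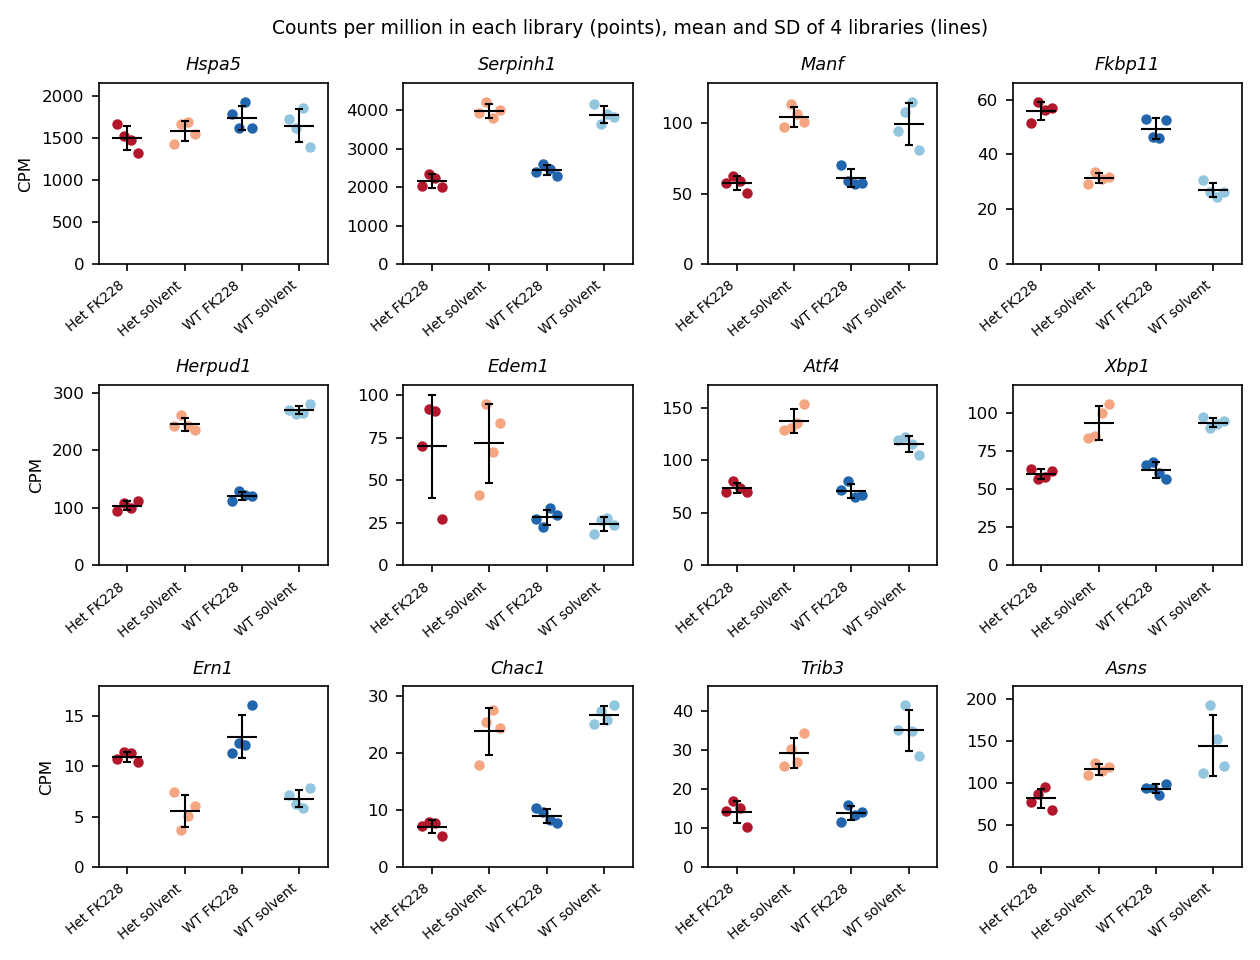
CPM in each library for 12 of the genes, with FK228 left of solvent within each genotype and the mean and SD of 4 libraries as lines. Serpinh1, Manf, Herpud1, Atf4, Xbp1, Chac1, Trib3 and Asns are lower and Fkbp11 and Ern1 higher with FK228 in both genotypes without overlap, Hspa5 overlaps, and Edem1 is higher in heterozygous libraries except FK228 replicate 5.

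Among the sensors and transcription factors, 1 rose and 2 fell of 6 in each genotype. Atf4, the transcription factor downstream of PERK and of other kinases that phosphorylate eIF2alpha, had 70.3, 80.9, 74.2 and 69.6 CPM in heterozygous FK228 libraries, against 129, 131, 136 and 154 CPM in heterozygous solvent libraries. Atf4 in wild type was at 71.7, 80.7, 65.3 and 67.02 CPM with FK228 and 119.7, 122, 116 and 105 CPM in solvent. All FK228 libraries were lower than all solvent libraries, at -0.90 ± 0.084 (adjusted p = 9.61e-08) in heterozygous and -0.70 ± 0.083 (adjusted p = 1.89e-06) in wild-type cultures. Xbp1, the transcription factor that IRE1 activates by splicing, had 62.98, 56.5, 57.6 and 61.6 CPM in heterozygous FK228 libraries, against 83.4, 84.5, 99.8 and 106 CPM in heterozygous solvent libraries. Xbp1 in wild type was at 65.5, 67.4, 60.1 and 56.4 CPM with FK228 and 97.2, 89.6, 92.5 and 94.5 CPM in solvent. The groups were again apart, at -0.65 ± 0.084 (adjusted p = 5.34e-06) in heterozygous and -0.58 ± 0.084 (adjusted p = 1.58e-05) in wild-type cultures, and gene counts do not separate its spliced and unspliced forms. Ern1, which encodes IRE1, rose while Xbp1 fell, at 0.98 ± 0.18 (adjusted p = 0.000202) in heterozygous and 0.93 ± 0.17 (adjusted p = 0.000244) in wild-type cultures, without overlap in either genotype.

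Ddit3, which encodes CHOP, the factor of stress-induced cell death, did not pass. Ddit3 had 17.8, 20.6, 23.1 and 17.6 CPM in heterozygous FK228 libraries, against 18.2, 21.2, 26.7 and 19.5 CPM in heterozygous solvent libraries. Ddit3 in wild type was at 24.5, 18.01, 18.5 and 25.02 CPM with FK228 and 23.5, 22.1, 20.5 and 22.5 CPM in solvent. Groups overlapped, at -0.11 ± 0.14 (adjusted p = 0.54) in heterozygous and -0.041 ± 0.14 (adjusted p = 0.83) in wild-type cultures, and its strand-specific sum exceeded the unstranded count by 23.04%, where it overlaps Mars and a second gene model. Atf6, the cleaved sensor, had 29.3, 33.6, 30.1 and 29.2 CPM in heterozygous FK228 libraries, against 25.9, 25.3, 31.3 and 24.99 CPM in heterozygous solvent libraries. Atf6 in wild type was at 26.3, 21.8, 26.1 and 26.9 CPM with FK228 and 27.7, 25.6, 23.8 and 26.6 CPM in solvent. It overlapped as well, at 0.18 ± 0.10 (adjusted p = 0.135) in heterozygous and -0.037 ± 0.10 (adjusted p = 0.782) in wild-type cultures. Eif2ak3, the sensor kinase PERK, was at 0.16 ± 0.20 (adjusted p = 0.522) in heterozygous and -0.024 ± 0.19 (adjusted p = 0.929) in wild-type cultures, with an excess of 11.03% in the same measure.

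The 4 targets of ATF4 and CHOP had the largest median fall of the 5 roles, at -0.78 in heterozygous and -0.99 in wild-type cultures. In heterozygous cultures 3 of the 4 fell and in wild type all 4, beside 24.7% and 25.3% of all genes called lower. Chac1, which degrades glutathione, had 7.26, 7.86, 7.70 and 5.51 CPM in heterozygous FK228 libraries, against 17.9, 25.4, 27.5 and 24.3 CPM in heterozygous solvent libraries. Chac1 in wild type was at 10.3, 9.61, 8.21 and 7.75 CPM with FK228 and 24.99, 27.4, 25.7 and 28.3 CPM in solvent. It showed the largest fall of the 36 genes in both genotypes, without overlap, at -1.74 ± 0.15 (adjusted p = 2.98e-08) in heterozygous and -1.57 ± 0.14 (adjusted p = 8.23e-08) in wild-type cultures. Trib3, a pseudokinase that restrains AKT and ATF4, had 14.2, 16.8, 15.1 and 10.3 CPM in heterozygous FK228 libraries, against 25.7, 30.2, 26.7 and 34.2 CPM in heterozygous solvent libraries. Trib3 in wild type was at 11.6, 15.95, 13.3 and 14.1 CPM with FK228 and 35.1, 41.3, 34.8 and 28.3 CPM in solvent. The FK228 libraries lay apart below, at -1.05 ± 0.15 (adjusted p = 1.63e-05) in heterozygous and -1.35 ± 0.15 (adjusted p = 8.72e-07) in wild-type cultures. Asns, asparagine synthetase, had 76.8, 86.6, 94.7 and 67.4 CPM in heterozygous FK228 libraries, against 109, 124, 114 and 118 CPM in heterozygous solvent libraries. Asns in wild type was at 94.1, 93.97, 85.2 and 98.5 CPM with FK228 and 111, 192, 153 and 121 CPM in solvent. It fell without overlap in both, at -0.51 ± 0.14 (adjusted p = 0.00429) in heterozygous and -0.63 ± 0.13 (adjusted p = 0.00078) in wild-type cultures. Ppp1r15a, which encodes GADD34, the phosphatase subunit that restores translation, had 28.5, 29.02, 28.2 and 28.8 CPM in heterozygous FK228 libraries, against 26.5, 30.4, 36.5 and 32.5 CPM in heterozygous solvent libraries. Ppp1r15a in wild type was at 29.4, 26.05, 30.98 and 25.6 CPM with FK228 and 35.3, 35.7, 37.97 and 32.98 CPM in solvent. Only the wild-type groups were apart, at -0.14 ± 0.10 (adjusted p = 0.261) in heterozygous and -0.34 ± 0.10 (adjusted p = 0.00643) in wild-type cultures, and the 2 effects did not pass a test of their difference (interaction, log2 0.21 ± 0.14 (adjusted p = 0.93)).

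Grouped by the promoter elements shown above, 4 of 4 genes with CARE (Herpud1, Trib3, Chac1 and Asns) fell in both genotypes. So did Atf4, Derl2, Dnajb9, Fkbp2, Serpinh1 and Xbp1, whose windows held no CARE, and Manf, for which no window was used. Of the 9 genes with ERSE, 1 rose, 0 fell and 8 passed in neither direction in each genotype, the riser being Calr in heterozygous cultures and Derl3 in wild type. Of the 2 genes with ERSE-II, Herpud1 fell and Dnajb11 did not pass. The ERSE count changed with the fit: DESeq2 also called Canx and Pdia6 higher in wild type, and Calr lost its heterozygous call in 6 of 25 other fits. These are counts of few genes beside the shares of 24.7% and 25.3% of all genes called lower. The shares called higher were 23.8% and 23.7% in heterozygous and wild-type cultures.

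Genes around this set were described with lists of the wider pathway. The amino acid response, the other targets of ATF4, had 2 rises and 13 falls among 28 genes in heterozygous cultures and 0 rises and 18 falls in wild type, with medians of -0.33 and -0.33. Of all genes, 23.8% were called higher and 24.7% lower in heterozygous cultures, and 23.7% and 25.3% in wild type. Nupr1, a stress-induced chromatin protein, averaged 41.01 ± 5.38 CPM in heterozygous FK228 and 103 ± 1.16 CPM in heterozygous solvent libraries (SD, n = 4 each), a log2 fold change of -1.34 ± 0.12 (adjusted p = 5.11e-08). In wild type Nupr1 was at -1.25 ± 0.12 (adjusted p = 1.11e-07). Vldlr, a lipoprotein receptor, was at -1.66 ± 0.15 (adjusted p = 7.42e-08) in heterozygous and -1.69 ± 0.15 (adjusted p = 6.65e-08) in wild-type cultures. These lists, as the 36 genes, were written with earlier results of the data known, so their counts are descriptions.

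The counts of the lists of ER entry, exit and degradation stand beside 23.8% of all genes called higher and 24.7% lower in heterozygous cultures, and 23.7% and 25.3% in wild type. Translocon and signal peptide genes had 4 rises and 10 falls of 22 in heterozygous cultures and 4 and 7 in wild type. Tram1, a translocating chain protein, was at -0.51 ± 0.057 (adjusted p = 8.75e-07) and -0.46 ± 0.057 (adjusted p = 3.16e-06) in heterozygous and wild-type cultures. Spcs3, a signal peptidase subunit, was at -0.49 ± 0.07 (adjusted p = 1.33e-05) in heterozygous cultures, and Srp14, of the signal recognition particle, at 0.51 ± 0.087 (adjusted p = 9.92e-05) in wild type. N-glycosylation genes had 2 rises and 7 falls of 21 in heterozygous cultures and 3 and 6 in wild type. Dad1, an oligosaccharyltransferase subunit, rose to 381 ± 12.9 CPM in heterozygous FK228 libraries, against 244 ± 8.69 CPM in heterozygous solvent, at 0.64 ± 0.062 (adjusted p = 1.41e-07), and was at 0.75 ± 0.062 (adjusted p = 2.65e-08) in wild type. Dpagt1, the enzyme of the first step of glycan assembly, was at -0.54 ± 0.088 (adjusted p = 6.21e-05) and -0.45 ± 0.087 (adjusted p = 0.000309).

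Other ERAD genes had 3 rises and 11 falls of 21 in heterozygous cultures and 3 and 7 in wild type. Ubxn8, an ER adaptor of the ATPase VCP, averaged 17.5 ± 2.25 CPM in heterozygous FK228 and 53.6 ± 1.89 CPM in heterozygous solvent libraries, at -1.62 ± 0.09 (adjusted p = 2.72e-10). In wild type it was at -1.71 ± 0.089 (adjusted p = 2e-10). Vcp itself was at -0.61 ± 0.064 (adjusted p = 3.74e-07) in heterozygous cultures, and Svip, a small inhibitor of VCP in ERAD, at 1.20 ± 0.13 (adjusted p = 5.87e-07) in wild type. ER to Golgi transport had 3 rises and 11 falls of 20 in heterozygous cultures and 4 and 8 in wild type. Surf4, a cargo receptor, was at -0.82 ± 0.083 (adjusted p = 2.71e-07) and -0.82 ± 0.082 (adjusted p = 2.54e-07), and Sec23a, a COPII coat subunit, at -0.76 ± 0.073 (adjusted p = 1.46e-07) and -0.55 ± 0.073 (adjusted p = 6.41e-06) in heterozygous and wild-type cultures.

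Other ER stress transducers and ER-phagy genes had 5 rises and 5 falls of 18 in heterozygous cultures and 4 and 4 in wild type. Casp12, an ER-associated caspase, averaged 1.45 ± 1.01 CPM in heterozygous FK228 and 13.9 ± 4.14 CPM in heterozygous solvent libraries, at -3.24 ± 0.38 (adjusted p = 1.48e-06), and was at -2.99 ± 0.37 (adjusted p = 3.09e-06) in wild type. Nfe2l1, a transcription factor anchored in the ER, was at -0.39 ± 0.066 (adjusted p = 9.63e-05) in heterozygous cultures, and Sec24d, a COPII subunit that is also in the transport list, at -0.34 ± 0.066 (adjusted p = 0.0003) in wild type. The cytosolic heat shock list had 6 rises and 2 falls of 15 in each genotype, beside the same shares of all genes. Hspa4, a nucleotide exchange factor, was at 0.66 ± 0.074 (adjusted p = 9.74e-07) in wild type and Hspb1, a small heat shock protein, at 1.52 ± 0.20 (adjusted p = 4.58e-06) in heterozygous cultures. Cryab, another small heat shock protein, fell at -1.62 ± 0.12 (adjusted p = 4.69e-09) and -1.46 ± 0.12 (adjusted p = 1.57e-08) in heterozygous and wild-type cultures.

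**Figure D4:**
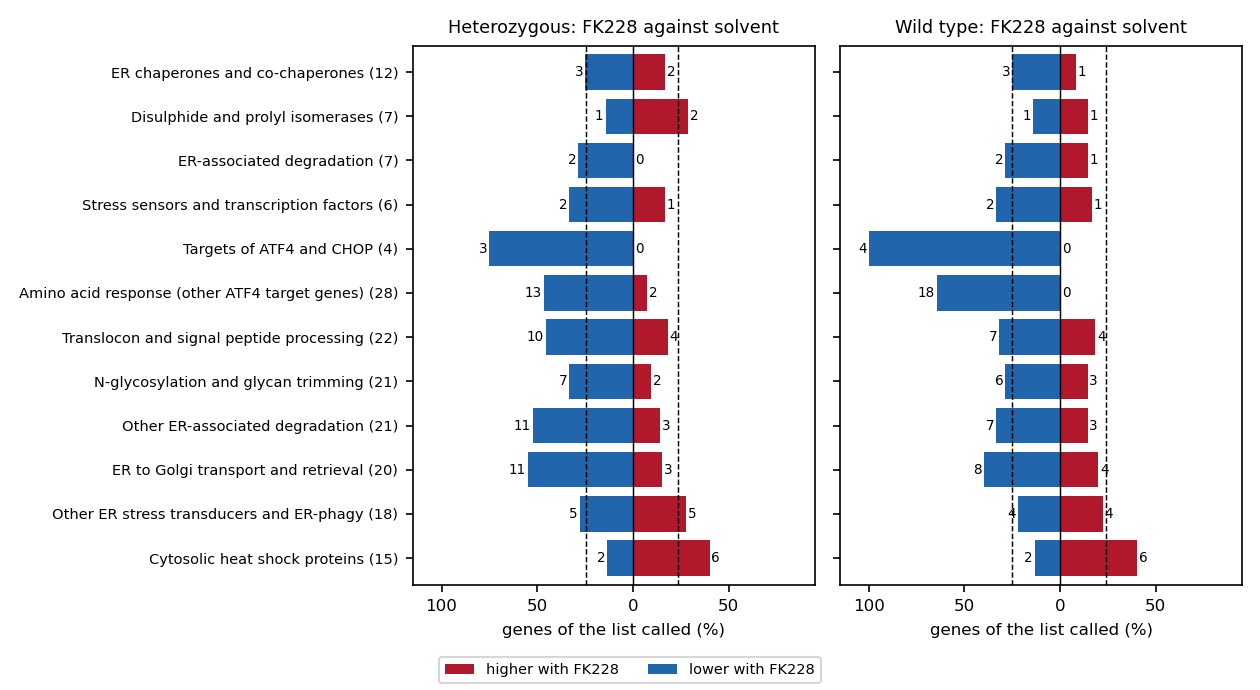
Share of the genes of each list called higher (red, right) or lower (blue, left) with FK228 in heterozygous (left panel) and wild-type (right panel) cultures, with list sizes in brackets, counts at the bars and dashed lines at the shares of all genes called in that direction. Of the ATF4 and CHOP targets 3 and 4 of 4 fell, and of the amino acid response 13 and 18 of 28.

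Markers of other cell types moved with FK228 as well. Their counts stand beside 23.8% of all genes called higher and 24.7% lower in heterozygous cultures, and 23.7% and 25.3% in wild type. All 14 macrophage markers fell in both genotypes, and their summed level was 45.2 to 62.97 CPM in heterozygous FK228 and 321 to 492 CPM in heterozygous solvent libraries. In wild type the sum was 65.2 to 85.1 CPM with FK228 and 482 to 573 CPM in solvent. Of 12 mesenchyme markers, among them collagen genes, 1 rose and 9 fell in heterozygous and 1 rose and 11 fell in wild-type cultures. Their sum was 2569 to 2942 CPM in heterozygous FK228 and 4406 to 5804 CPM in heterozygous solvent libraries, and 2522 to 3102 CPM in wild-type FK228 and 4278 to 5376 CPM in wild-type solvent libraries. Of 10 Schwann and satellite cell markers tested, 2 rose and 7 fell in heterozygous and 2 rose and 6 fell in wild-type cultures. Their sum was 359 to 399 CPM in heterozygous FK228 and 485 to 529.7 CPM in heterozygous solvent libraries, and 376 to 436 CPM in wild-type FK228 and 480.1 to 623 CPM in wild-type solvent libraries. Of 10 endothelial markers 1 rose and 4 fell in heterozygous and 1 rose and 5 fell in wild-type cultures, and of 9 cartilage markers tested 1 rose and 4 fell in heterozygous and 2 rose and 5 fell in wild type. The endothelial sum was 251 to 312 CPM in heterozygous FK228 and 313 to 377 CPM in heterozygous solvent libraries, and 197 to 289.5 CPM in wild-type FK228 and 278 to 406 CPM in wild-type solvent libraries. The cartilage sum was 3364 to 4104 CPM in heterozygous FK228 and 4136 to 6634 CPM in heterozygous solvent libraries, and 3717 to 5012 CPM in wild-type FK228 and 4782 to 6606 CPM in wild-type solvent libraries. Of 17 supporting cell markers 0 rose and 10 fell in heterozygous and 1 rose and 7 fell in wild-type cultures, and of 16 hair cell markers 1 rose and 6 fell in heterozygous and 1 rose and 7 fell in wild type. The supporting cell sum was 4341 to 5157 CPM in heterozygous FK228 and 4896 to 6952 CPM in heterozygous solvent libraries, and 4446 to 4968 CPM in wild-type FK228 and 4223 to 5631 CPM in wild-type solvent libraries. The hair cell sum was 511 to 603 CPM in heterozygous FK228 and 414 to 649 CPM in heterozygous solvent libraries, and 693 to 817 CPM in wild-type FK228 and 626 to 854 CPM in wild-type solvent libraries. Of 12 spiral ganglion neuron markers 5 rose and 3 fell in heterozygous and 3 rose and 5 fell in wild-type cultures. The neuron sum was nonetheless lower with FK228 in heterozygous cultures, at 979 to 1080 CPM against 1101 to 1421 CPM in solvent. In wild type it was 1114 to 1466 CPM with FK228 and 1263 to 1500 CPM in solvent. No marker tested in these lists was at 0 in a whole group, and the part of these cells in the falls of Serpinh1, Manf, Herpud1 and the ATF4 targets was not tested.

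The next comparisons asked how heterozygous and wild-type cultures differed. Between genotypes Edem1 stood out, and it was the only one of the 36 genes to pass both with FK228 and in solvent by edgeR's test. With FK228, 2 genes were higher (Edem1 and Calr) and 0 lower, beside 1.21% of all genes called higher and 0.928% lower (2.14% in either direction). In solvent 1 was higher (Edem1) and 0 lower, beside 1.20% and 0.823% of all genes (2.03% in either direction). With FK228, 2 of the 36 genes had all heterozygous libraries above and 2 had them below all wild-type libraries, beside 4.46% and 4.37% of all genes. In solvent 3 were above and 1 below, beside 3.10% and 3.13% of all genes. At an unadjusted p under 0.05 there were 4 higher and 6 lower with FK228, and 5 higher and 3 lower in solvent. The share of all genes at that unadjusted threshold is not given here, so whether these counts are particular to the set was not tested. With FK228 DESeq2 called 2 lower (Canx and Herpud1) and limma voom 1 (Canx), and in solvent both called 0 lower.

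Edem1 encodes a lectin that draws misfolded glycoproteins out of the folding cycle toward ERAD. Edem1 had 70.1, 92.1, 90.8 and 27.4 CPM in heterozygous FK228 libraries, against 27.5, 22.5, 33.5 and 29.6 CPM in wild-type FK228 libraries. In solvent it had 41.5, 94.9, 66.9 and 83.8 CPM in heterozygous libraries, against 18.7, 26.7, 28.04 and 23.9 CPM in wild-type libraries. The solvent groups did not overlap, while heterozygous FK228 replicate 5 lay within the wild-type range. Its log2 difference was 1.31 ± 0.29 (adjusted p = 0.0199) with FK228 and 1.56 ± 0.29 (adjusted p = 0.00537) in solvent, and heterozygous libraries varied most for this gene. The call with FK228 was lost in 6 of 25 other fits (adjusted p up to 0.192), among them those without heterozygous FK228 replicate 3 or 4 or wild-type FK228 replicate 1, 2 or 7, and the call in solvent in none of 25 (adjusted p up to 0.0439).

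Edem1 lies at chr6:108828641-108859356 on GRCm38. Of 7 other genes tested within 1 Mb, 0 were called in both genotype comparisons, and of 48 within 5 Mb 1 was (Lhfpl4), beside 160 of all 17125 genes. Lhfpl4 went the other way from Edem1, at -0.96 with FK228 and -2.01 in solvent. The nearest tested neighbour of Edem1, the lysosomal GTPase gene Arl8b, was at 0.37 with FK228 and 0.41 in solvent (adjusted p = 0.206 and 0.159).

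Calr, the values of which are given above, was at 0.31 ± 0.074 (adjusted p = 0.035) with FK228 and 0.22 ± 0.074 (adjusted p = 0.194) in solvent, without overlap between genotypes in either condition. With spike-in scaling the FK228 value was -0.42, and the call was lost in 8 of 25 other fits (adjusted p up to 0.172). The count of 2 higher with FK228 was 1 without heterozygous FK228 replicate 2 or wild-type FK228 replicate 1 or 4, and 0 without heterozygous FK228 replicate 3 or 4 or wild-type FK228 replicate 2 or 7. Herpud1 was lower in every heterozygous library than in every wild-type library of the same condition without passing, at -0.22 ± 0.066 (adjusted p = 0.106) with FK228 and -0.14 ± 0.066 (adjusted p = 0.439) in solvent. Hspa5 was at -0.21 ± 0.091 (adjusted p = 0.322) and -0.059 ± 0.091 (adjusted p = 0.907), Xbp1 at -0.064 ± 0.084 (adjusted p = 0.848) and -0.0018 ± 0.083 (adjusted p = 0.997), and Atf4 at 0.051 ± 0.084 (adjusted p = 0.885) and 0.25 ± 0.082 (adjusted p = 0.169), in the same order. With spike-in scaling 35 of the 36 genes were called lower in heterozygous cultures with FK228, beside 12761 of all 17125 genes. The median of all genes was -0.74 there. In solvent that scaling called 0 of the 36 lower, beside 192 of all genes.

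**Figure D5:**
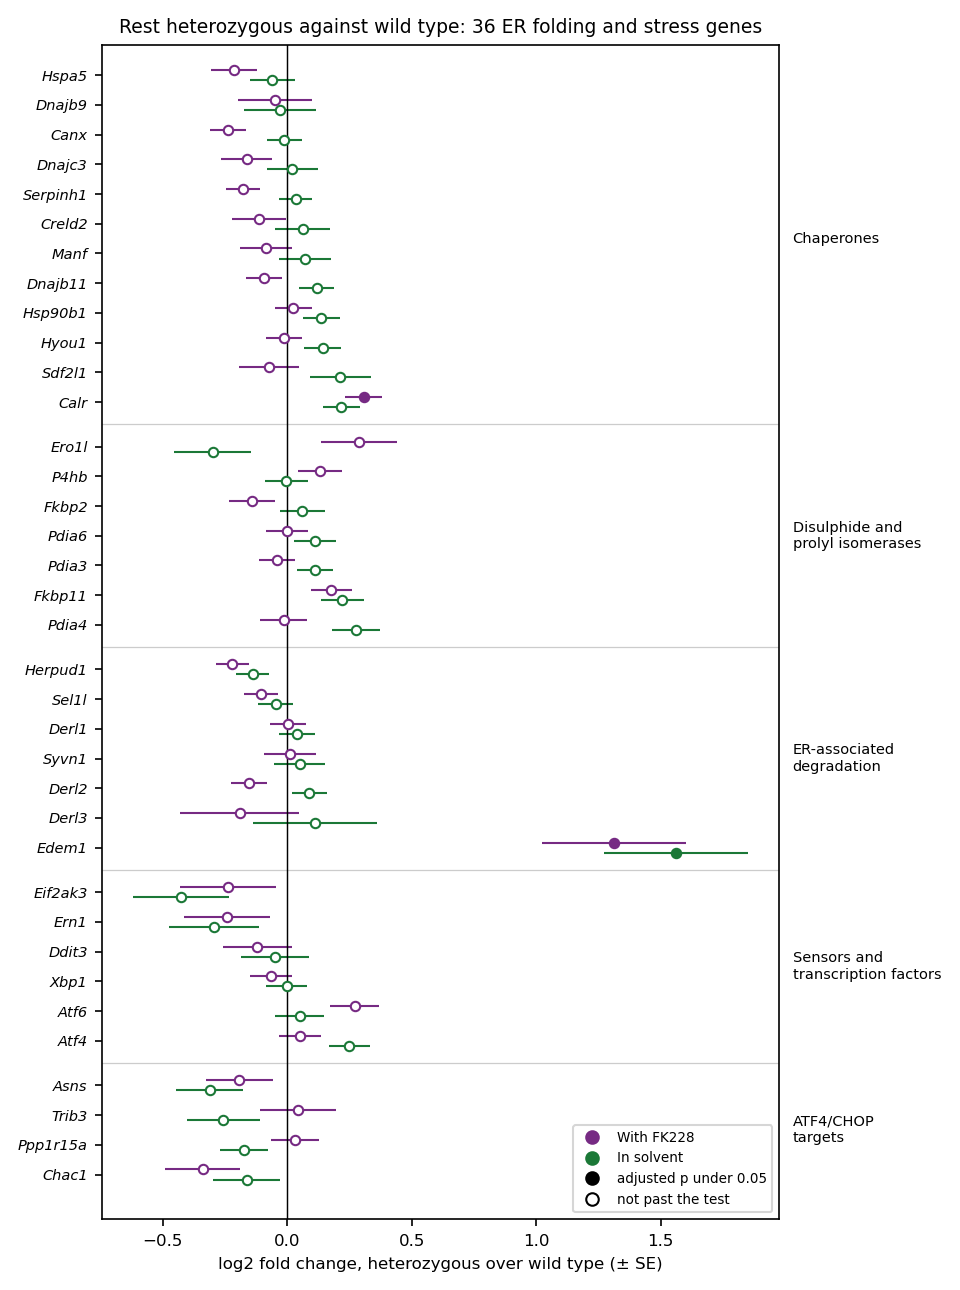
Log2 difference of heterozygous over wild-type cultures (± SE, x axis) for the 36 genes, with FK228 (purple) and in solvent (green), filled where the adjusted p was under 0.05. Edem1 lies at 1.31 and 1.56, Calr passes with FK228 at 0.31 (-0.42 with spike-in scaling), and the other values lie between -0.42 and 0.29 without passing.

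Whether FK228 acted differently in the 2 genotypes was asked by the interaction. By edgeR's test 0 of the 36 genes passed, beside 0.0234% of all genes (4 genes, 0.0175% called higher and 0.00584% lower), and DESeq2 also called 0 of the 36. At an unadjusted p under 0.05, Ero1l was higher and Canx, Serpinh1, Pdia4 and Derl2 were lower in the heterozygous effect. How large a share of all genes reached that unadjusted threshold is not given here, so this list does not set the 36 genes apart. Ero1l had the largest difference, at 0.59 ± 0.22 (adjusted p = 0.739), and Serpinh1 was at -0.21 ± 0.10 (adjusted p = 0.844). So the calls that Calr and Ero1l had in heterozygous cultures alone, and Derl3 and Ppp1r15a in wild type alone, were not shown to differ between genotypes. With spike-in scaling 23 of the 36 passed as lower, where 4069 of all 17125 genes were called, 4060 of them lower.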

How the data were processed

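Per the submitters' processing notes, reads were aligned with STAR 2.5.2a to GRCm38.p4. The authors deposited raw read counts per gene for each library, and a table of normalized signal, which is those counts divided by 1 DESeq2 size factor per library. The annotation release is not given in the sources used here. Per the labels' protocols, cDNA was primed with oligo dT, extended by template switching and tagmented, which marks no strand. Reads on both strands were near equal (49.8%), so the unstranded counts were used, and reads in exons that 2 genes share drop out. Reads outside genes were 11.2% to 22.2% of counts and were left out with spike-in and vector rows.

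Genes with enough counts were kept with filterByExpr of edgeR 4.0.16 (minimum count 10, minimum total 15), which left 17125 of 48709 gene rows and all 36 genes described here. All 16 libraries, scaled with TMM factors, entered 1 quasi-likelihood fit with 4 group means. Benjamini-Hochberg adjustment ran over every gene tested, and genes with an adjusted p under 0.05 count as called. Every adjusted p in the text is from this edgeR test unless another tool is named. Errors after a log2 fold change are SEs of the model, and errors after CPM are SDs of 4 libraries. Levels between genes were compared per kb of exon (GENCODE annotation on GRCm38). The test was first tried on simulated counts. No pair of libraries in a group was close enough in counts to be 1 library deposited in 2 files, which does not show that the pools were independent. The number of pools in a group limits the precision.

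Values in every library were given for, per role, the 2 genes with the smallest p in either FK228 comparison, the 4 with the highest level per kb, and any gene called between genotypes. From each wider list the 2 genes with the smallest p in each FK228 comparison were named, and the other genes have a fold change or a range. The members and lists were chosen with earlier results of these data known. Alternatives were DESeq2 1.42.0, limma 3.58.1 voom with quality weights, RLE factors, spike-in scaling, a stricter or no filter, a block for the replicate number, a fit of only the groups compared, the sex mix of the pools as a covariate, and leaving out each library. The share of reads outside genes as a covariate was added after seeing the data.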

Additional observations from a re-analysis of the deposited data

Results flagged for a closer look

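In groups of 4 libraries, 8 of 144 sets of values held 1 library whose gap to its nearest neighbour exceeded Dixon's critical value for 4 samples, and chance flags about 1 in 20. Among chaperones, Hyou1, a large BiP partner, was at 101.6 CPM in wild-type solvent replicate 2, Sdf2l1 at 37.17 CPM in heterozygous solvent replicate 4, and Manf at 70.45 CPM in wild-type FK228 replicate 1. Among isomerases, Pdia4 was at 956.4 CPM in wild-type solvent replicate 1. P4hb was at 1784 CPM in heterozygous FK228 replicate 2 and at 1285 CPM, its lowest, in heterozygous solvent replicate 1. Atf6 was at 21.76 CPM, its lowest, in wild-type FK228 replicate 2, and at 31.31 CPM in heterozygous solvent replicate 4. The fall of Manf and the values of the others are given in the text with these libraries included, and fits without each of them left Manf lower in both genotypes.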

How the results depend on the processing

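The falls of Asns, Atf4, Chac1, Derl2, Fkbp2, Herpud1, Manf, Serpinh1, Trib3 and Xbp1 and the rises of Ern1 and Fkbp11 kept direction and call in both genotypes in all 25 fits other than spike-in scaling. With spike-in scaling 0 of the 36 genes rose and 30 fell with FK228 in heterozygous cultures, 0 were higher and 35 lower between genotypes with FK228, 23 were lower in the interaction, and all genes called were 12857 between genotypes with FK228 and 4069 in the interaction. By construction this scaling adds the shift of all genes to each value, and signs turned for Hyou1 (-0.71), Calr (-0.49), Sdf2l1 (-0.34), Creld2 (-0.64), Pdia6 (-0.62), P4hb (-0.61), Sel1l (-0.60) and Atf6 (-0.52) with FK228 in heterozygous cultures. Between genotypes with FK228 they turned for Hsp90b1 (-0.70), Calr (-0.42), Pdia6 (-0.72), P4hb (-0.59), Ero1l (-0.47), Fkbp11 (-0.55), Syvn1 (-0.73), Derl1 (-0.73), Atf6 (-0.45), Atf4 (-0.69), Ppp1r15a (-0.70) and Trib3 (-0.70). For the other shifts below the cause was not tested. Members higher with FK228 in wild type were 8 with DESeq2, 7 with RLE factors, 7 with the stricter filter, 8 with only the groups compared and 10 with the share of reads outside genes as a covariate, which was chosen after seeing the data. That covariate gave 2 members higher between genotypes in solvent, 592 genes called between genotypes with FK228 and 8 in the interaction. DESeq2 called 550 and 638 genes between genotypes in solvent and with FK228, 29 in the interaction, and 2 members lower with FK228, while voom called 1 member lower there and 2 genes in the interaction. No filter gave 10 genes in the interaction, and the sex mix as a covariate gave 230 genes between genotypes in solvent and 1 member higher with FK228. The interaction has no fit with only the groups compared.

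Same-numbered libraries of different groups correlated between -0.23 and 0.17 in their deviations from the group means. These values cannot settle whether replicate numbers pair the samples, since unlike-numbered libraries were not compared. With the replicate number as a block, 3 members rose with FK228 in heterozygous cultures, 10 fell in wild type (without Dnajb9 and without Ppp1r15a, which had an adjusted p of 0.0708), 1 was lower between genotypes in solvent (Ero1l), 0 were higher between genotypes with FK228, and 211, 107 and 0 genes were called between genotypes in solvent, with FK228 and in the interaction.

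Leaving out 1 library gave 7588 to 8466 genes called for FK228 in heterozygous and 7532 to 8604 in wild-type cultures, 188 to 421 and 237 to 384 between genotypes with FK228 and in solvent, and 2 to 6 in the interaction. Members that rose were 3 to 7 in heterozygous and 4 to 7 in wild type, members that fell 10 to 12 and 11 to 12, and members higher between genotypes 0 to 2 with FK228 and 1 to 1 in solvent, with 0 to 0 lower there and in either direction of the interaction.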
